A study of Saccharomyces cerevisiae with 6 samples.

Results

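The genes described here encode 8 hydrolases of the yeast vacuole: the endoproteases PEP4 (YPL154C) and PRB1 (YEL060C), the carboxypeptidases PRC1 (YMR297W) and CPS1 (YJL172W), the aminopeptidases DAP2 (YHR028C), LAP4 (YKL103C) and APE3 (YBR286W), and the mannosidase AMS1 (YGL156W). They were chosen by name, and each was found through the array probe annotated with its reading frame. All 8 had 1 probe, out of 6225 gene identifiers on the array, and all 8 were well above background on all 6 arrays. They are therefore part of the 5944 genes tested. LAP4 is listed as APE1 in the RefSeq gene table. Probe, promoter and protein sequences were not analysed here.

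The vacuole is the acidic degradative compartment of budding yeast, the counterpart of the lysosome of animal cells. Most of its soluble proteases are made as inactive precursors, pass through the endoplasmic reticulum and Golgi, and are activated in the vacuole by a cascade that starts with proteinase A, the product of PEP4. The membrane-anchored enzymes use separate sorting routes, and Lap4 and Ams1 are packed in the cytosol and delivered by the cytoplasm-to-vacuole targeting (Cvt) route, which shares its machinery with autophagy. Together these enzymes return amino acids and sugars to the cell when nutrients run short.

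Cells given 10 mM glycolaldehyde for 4 h, in 3 samples, were set against untreated cells, also in 3 samples, all of strain BY4743, kept without shaking at 30 °C in a synthetic medium that held 2% glucose. Glycolaldehyde is a small reactive hydroxyaldehyde. The labels call the strain haploid, although BY4743 is known as a diploid, and the wording of the growth protocol allows the aldehyde to have been present in the overnight culture too. RNA came from 3 independent starter cultures per the labels. HIS3, LEU2 and URA3, which are deleted in this strain, were well above background on 0 arrays, while the mating genes STE2, STE3 and MFA1 were so on all 6.

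Each sample had its own single-colour array, on which 5929 to 6070 of 6256 yeast probes were well above background and 0 spots were saturated. Arrays lay on 3 slides and were scanned on 2 days; replicate 3 of both groups made up scan day 2 and slide 3. Group names follow the sample titles; the free-text descriptions give the opposite treatment for every sample. The values come from the authors' deposited value table, whose columns carry sample identifiers. For 3 of the 6 columns the matching scanner file is attached to another sample, which moves 2 arrays to the other group. With the scanner files grouped as attached, limma called 0 of 5924 genes (134 had an unadjusted p under 0.05), so every call below rests on the record in the value table. The 4 arrays that keep their group in both records, untreated replicates 1 and 2 and glycolaldehyde replicates 2 and 3, are given beside it. Among these only glycolaldehyde replicate 3 is from scan day 2, so scan day is not balanced between the groups there.

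The comparison asks whether transcripts for vacuolar hydrolysis differed between cells with and without the aldehyde. CPS1, PRB1 and DAP2 were higher with glycolaldehyde and AMS1 was lower, while PEP4, PRC1, LAP4 and APE3 did not pass the test. The changes were small: the CPS1 signal was 1.49-fold that of untreated cells, and AMS1 was 0.875-fold. In limma with Benjamini-Hochberg adjustment over all tested genes at 0.05, 3 of the 8 rose (37.5%) and 1 fell (12.5%). Across all genes tested 29.6% rose and 23.5% fell (53.1% called in either direction), so the share of hydrolase genes called, 50%, lies near the background and is no property of this set. Its median log2 change was 0.18, against 0.03 over all genes. With quantile normalization, in place of scaling to the 75th percentile, 6 rose and 1 fell, PEP4, PRC1 and LAP4 being added, where 54.4% of all genes were called.

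Signals are given as multiples of the 75th percentile of all probes on the same array, and a level is compared only within a gene, since probes differ in brightness. The spots printed 7 times per array for each gene varied little, with a coefficient of variation of 1.85% to 7.88%.

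**Figure D1:**
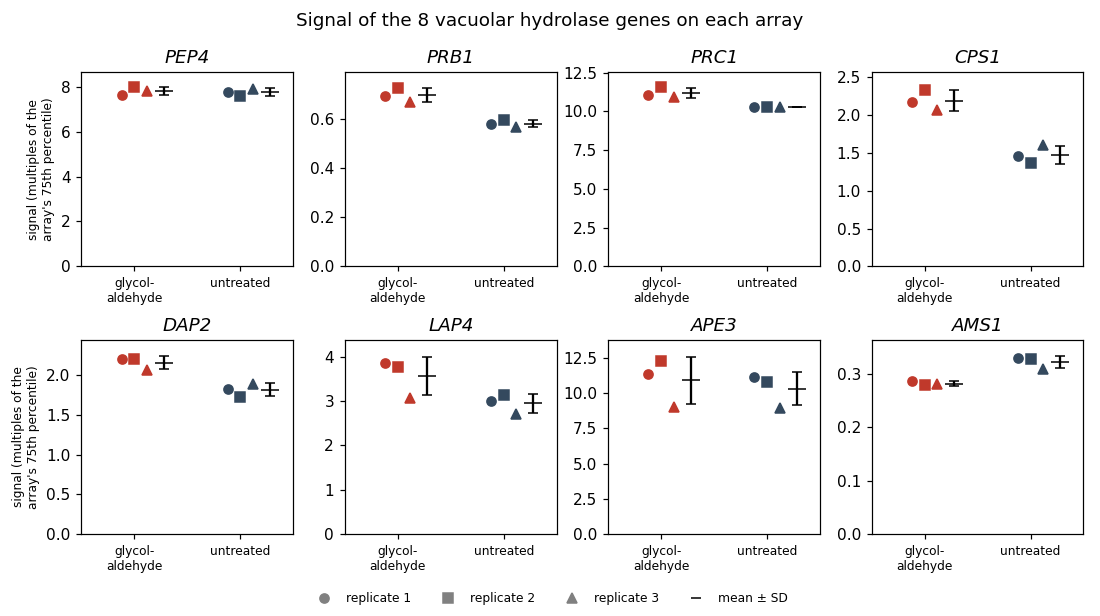
Signal of each gene on each array, in multiples of the array's 75th percentile, with glycolaldehyde arrays at the left and untreated arrays at the right of each panel; bars give the mean and SD of 3 replicates, and the axes start at 0. The groups are apart in PRB1, PRC1, CPS1, DAP2 and AMS1 and overlap in PEP4, LAP4 and APE3.

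PEP4 encodes proteinase A, the aspartyl protease that matures itself and then other vacuolar precursors. Its signal was 7.63, 7.99 and 7.80 in glycolaldehyde replicates 1 to 3, against 7.77, 7.56 and 7.90 in untreated replicates 1 to 3. The groups lay in the same range. The log2 change was 0.01 ± 0.05 (SE, n = 3 per group) with a 95% interval of -0.11 to 0.13 (limma, adjusted p = 0.877), and 97% of the genes tested had a larger absolute change. The 4 arrays on which the records agree gave 0.04 (adjusted p = 0.616). Under quantile normalization the log2 change was 0.15 and passed (adjusted p = 0.0383). Among the 405 genes with a mean signal above 5 times the 75th percentile, which include PEP4, that normalization gave a median log2 change of 0.03, against -0.04 with the 75th percentile.

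PRB1 encodes proteinase B, a subtilisin-type serine protease that Pep4 activates. It stood at 0.694, 0.724 and 0.667 with glycolaldehyde, against 0.578, 0.596 and 0.568 in untreated cells. Every treated array was above every untreated array. PRB1 rose by 0.26 ± 0.06 on the log2 scale, or 1.2-fold (limma, adjusted p = 0.00579). The difference was 0.27 within scan day 1 and 0.23 within scan day 2, and 0.24 in the 4 arrays on which the records agree (adjusted p = 0.0344), a fit that called 48.4% of all genes.

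PRC1 encodes carboxypeptidase Y, the serine carboxypeptidase long used to follow protein sorting to the vacuole. Its signal was 11.05, 11.6 and 10.9 in glycolaldehyde samples and 10.3 in each of the 3 untreated samples. The ranges did not overlap, and the untreated SD was 0.0127. The log2 change was 0.12 ± 0.05 with a 95% interval of -0.00041 to 0.24, and did not pass (limma, adjusted p = 0.0855). It passed with scan day as a block (adjusted p = 0.0321), within scan day 1 alone (0.0307) and with quantile normalization (0.0117), at log2 changes of 0.12, 0.13 and 0.22. Of all genes, 68.7% were called with scan day as a block and 70% within scan day 1. It missed the threshold when replicates 1 and 2 were first averaged and scan day then entered the fit (log2 change 0.11, adjusted p = 0.219), with the replicate block (0.0603) or with slide as a fixed block (0.106). The groups did not overlap at 60.9% of all genes tested, beside 5 of the 8 here (62.5%).

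CPS1 encodes carboxypeptidase S, a zinc-dependent enzyme that is made as a membrane protein and enters the vacuole through multivesicular bodies. It reached 2.17, 2.33 and 2.06 in glycolaldehyde samples, against 1.46, 1.36 and 1.60 in untreated samples. The lowest treated array was well clear of the highest untreated one. CPS1 rose by 0.57 ± 0.08 on the log2 scale with a 95% interval of 0.39 to 0.75 (limma, adjusted p = 0.000677), and 12% of tested genes had a larger absolute change. Within scan day 1 the difference was 0.68, and within scan day 2, with 1 array per group, it was 0.37. In the 4 arrays on which the records agree it was 0.64 (adjusted p = 0.00235).

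DAP2 encodes dipeptidyl aminopeptidase B, an integral protein of the vacuolar membrane. The signal was 2.21, 2.20 and 2.06 with glycolaldehyde, against 1.83, 1.73 and 1.89 without it. No untreated array reached a treated one. DAP2 rose by 0.25 ± 0.06 (limma, adjusted p = 0.00965), with a difference of 0.31 within scan day 1 and 0.13 within scan day 2. The 4 agreed arrays gave 0.26 (adjusted p = 0.0282).

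LAP4 encodes the vacuolar aminopeptidase I, the main cargo of the Cvt route. Glycolaldehyde samples had 3.85, 3.77 and 3.07, against 2.99, 3.14 and 2.72 in untreated samples. Glycolaldehyde replicate 3 lay below untreated replicate 2, and replicate 3 was the lowest of its group on both sides. The log2 change was 0.27 ± 0.10 with a 95% interval of 0.04 to 0.50, just short of the threshold (limma, adjusted p = 0.0534). It passed in 9 of the 19 alternatives other than the scanner files as attached. These include the replicate number as a block (adjusted p = 0.00356), where 65.7% of all genes were called, and scan day as a block (0.00135), with 68.7% called. It also passed when replicates 1 and 2 were averaged before the scan day block (0.00564). Without glycolaldehyde replicate 3 the log2 change was 0.37 (adjusted p = 0.00679). In the 4 agreed arrays, which hold replicate 3 of the glycolaldehyde group only, it was 0.15 (adjusted p = 0.286).

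APE3 encodes aminopeptidase Y, a soluble vacuolar enzyme. It stood at 11.4, 12.3 and 9.03 with glycolaldehyde, against 11.1, 10.8 and 8.96 without it. Replicate 3 was the lowest of both groups, so the spread between scan days exceeded that between the groups. The log2 change was 0.08 ± 0.13 with a 95% interval of -0.22 to 0.38 (limma, adjusted p = 0.653). It was 0.11 within scan day 1, 0.01 within scan day 2 and -0.06 in the 4 agreed arrays, which hold replicate 3 of the glycolaldehyde group only.

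AMS1 encodes the vacuolar alpha-mannosidase, which trims mannose from free glycans and also travels by the Cvt route. Its signal was 0.286, 0.278 and 0.281 in glycolaldehyde samples, against 0.330, 0.328 and 0.308 in untreated samples. All treated arrays lay below all untreated arrays. AMS1 fell by 0.19 ± 0.05 on the log2 scale (limma, adjusted p = 0.0176), with differences of -0.22 within scan day 1 and -0.13 within scan day 2. The call was lost without glycolaldehyde replicate 1 (adjusted p = 0.0501), glycolaldehyde replicate 2 (0.0697), untreated replicate 1 (0.0752) or untreated replicate 2 (0.0665), at log2 changes of -0.20, -0.18, -0.18 and -0.18. The 4 agreed arrays gave -0.23 (adjusted p = 0.0247).

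**Figure D2:**
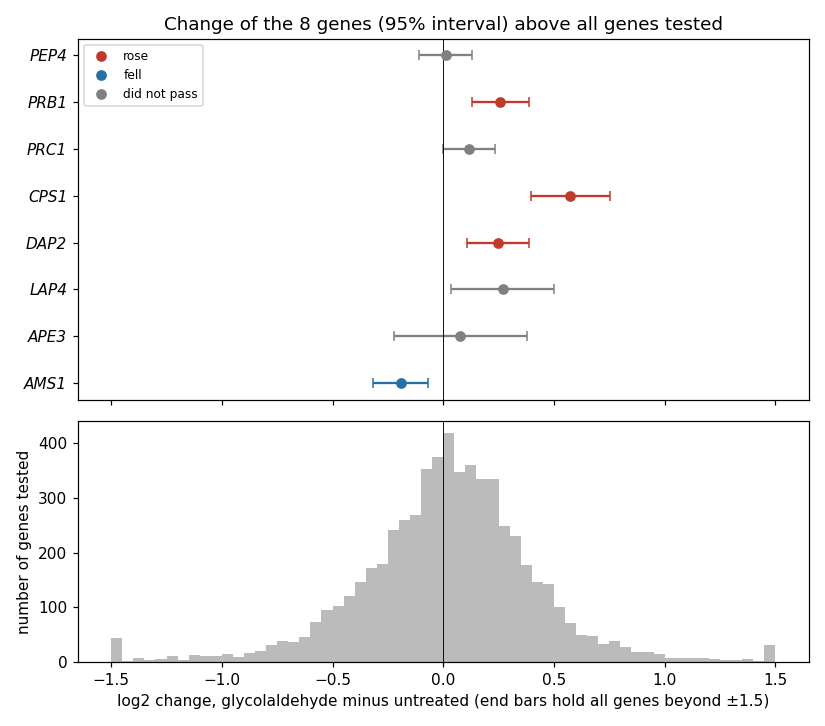
Upper part: log2 change of each gene, glycolaldehyde minus untreated, with its 95% interval from limma over 6 arrays; colours give the call at an adjusted p of 0.05. Lower part: number of genes at each log2 change among the 5944 tested, on the same axis; the 8 genes lie within the bulk of this distribution, CPS1 farthest out at 0.57.

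The 95% interval of CPS1 (0.39 to 0.75) did not meet those of PEP4 (-0.11 to 0.13), PRB1 (0.13 to 0.388), PRC1 (-0.00041 to 0.24), DAP2 (0.11 to 0.387) or APE3 (-0.22 to 0.376). It overlapped that of LAP4 (0.04 to 0.50). The gaps to PRB1 and DAP2 were narrow and depended on the fit. With slide as a fixed block CPS1 began at 0.358, below the upper ends of PRB1 (0.366) and DAP2 (0.414). Within scan day 1 alone it began at 0.542, above those of PRB1 (0.381) and DAP2 (0.421). AMS1, with an interval of -0.32 to -0.07, lay on the other side of 0 from the 3 genes that rose. LAP4 and AMS1, which share a delivery route, had log2 changes of opposite sign, although LAP4 did not pass.

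Across the 6 arrays, PRB1, PRC1, CPS1 and DAP2 varied together, with Pearson correlations of 0.895 to 0.984 over their 6 pairs. PEP4 had correlations of -0.423 to 0.411 with the other 7 genes. These values describe 6 arrays of 2 groups, where any pair of genes that differs between the groups correlates. Of the 5151 named genes compared, the patterns closest to CPS1 were those of PEP12 (r = 0.997), TMA10 (r = 0.997) and SUE1 (r = 0.997). PEP12 encodes the syntaxin of the late endosome, through which Cps1 passes. The patterns closest to AMS1 were those of RPM2 (r = 0.997), BCD1 (r = 0.996) and SSN3 (r = 0.994).

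**Figure D3:**
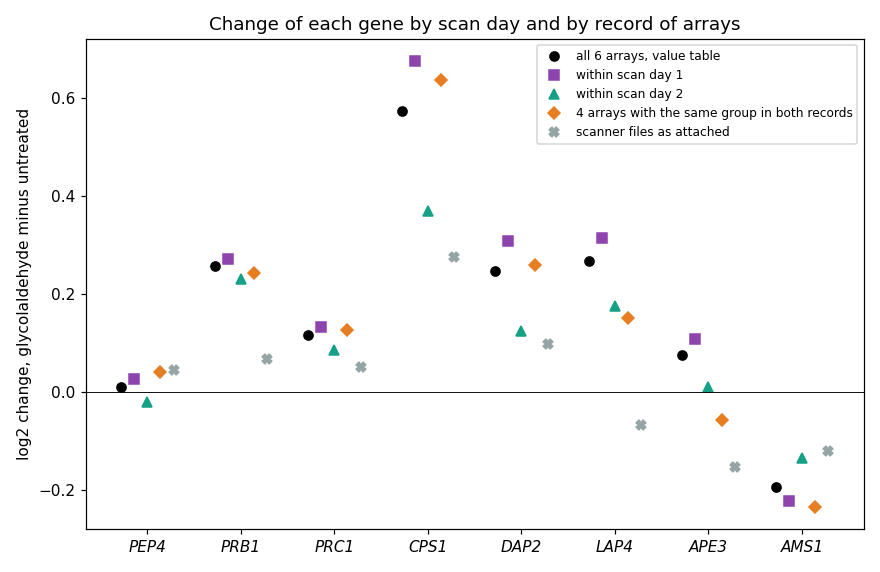
Log2 change of each gene, glycolaldehyde minus untreated, over all 6 arrays of the value table, within scan day 1 (2 arrays against 2), within scan day 2 (1 against 1), over the 4 arrays with the same group in both records, and with the scanner files grouped as attached. PRB1, PRC1, CPS1 and DAP2 stayed above 0 and AMS1 below 0 in all of these, whereas PEP4, LAP4 and APE3 each fell on either side of 0.

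With the scanner files as attached, the 8 genes had log2 changes from -0.15 (APE3) to 0.28 (CPS1), and adjusted p from 0.919 to 0.934 for CPS1, PRB1, DAP2, AMS1, LAP4, APE3, PEP4 and PRC1 in limma, where 0% of genes were called. LAP4 had -0.07 and APE3 -0.15 there, and the other 6 kept their sign.

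The cytosol holds small inhibitor proteins that bind these proteases. PAI3 encodes the inhibitor of proteinase A, PBI2 that of proteinase B, and TFS1 that of carboxypeptidase Y. PAI3 had 0.178, 0.201 and 0.137 with glycolaldehyde, against 0.113, 0.112 and 0.0951 without it, and rose by 0.67 ± 0.14 (limma, adjusted p = 0.00491). PBI2 had 0.560, 0.561 and 0.571, against 0.649, 0.640 and 0.850, and fell by 0.33 ± 0.11 (adjusted p = 0.0353). Untreated replicate 3 was the highest of the 6, and the difference was -0.20 within scan day 1 and -0.57 within scan day 2. PBI2 lost its call without glycolaldehyde replicate 1 (adjusted p = 0.0894), 2 (0.0878) or 3 (0.0689), and in the 4 agreed arrays (0.0513). TFS1 had a log2 change of -0.08 ± 0.07 (adjusted p = 0.352).

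Other enzymes of the vacuole mostly did not pass. Of 8 further vacuolar hydrolase genes 2 rose and 0 fell (median log2 change 0.00), beside 29.6% and 23.5% of all genes. With quantile normalization 2 rose and 2 fell, where 54.4% of all genes were called. The replicate block gave 3 rises and 2 falls, where 65.7% of all genes were called. RNY1, the vacuolar ribonuclease of the T2 family, rose by 0.37 ± 0.09 (limma, adjusted p = 0.013), with 0.52 within scan day 1 and 0.06 within scan day 2. PFF1, a protease of the vacuolar membrane, rose by 0.28 ± 0.07 (adjusted p = 0.0113) with its brightest probe, and by 0.25 without passing when its probes were averaged (adjusted p = 0.0537). RNY1 lost its call without glycolaldehyde replicate 2 (adjusted p = 0.0507), which left 1 rise and gave 1 fall; 1 fall also appeared without untreated replicate 3.

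Enzymes grouped here as relatives share a family with the 8, or only a type of activity. They were listed as enzymes that act mainly elsewhere in the cell, in the cytosol, the secretory pathway or at the surface. Their location was not measured here. Of 17 such genes 5 fell and 2 rose (41.2% called, median -0.13), beside 23.5% of all genes fallen, 29.6% risen and 53.1% called. DUG1, a cytosolic peptidase of glutathione breakdown related to Cps1, fell by 0.38 ± 0.06 (limma, adjusted p = 0.00107). LAP3, a cysteine aminopeptidase, fell by 0.34 ± 0.05 (limma, adjusted p = 0.0011), and the aminopeptidase gene AAP1 fell by 0.32 ± 0.06 (adjusted p = 0.0031). RRT12, a subtilisin-family relative of Prb1, rose by 0.67 ± 0.05 (limma, adjusted p = 6.67e-05). Its signal was low, at 0.0191, 0.0188 and 0.0195 with glycolaldehyde, against 0.0124, 0.0116 and 0.0122 without it. MNS1, the mannosidase of glycoprotein trimming in the endoplasmic reticulum, rose by 0.16 ± 0.06 (adjusted p = 0.0387) and lost its call without glycolaldehyde replicate 1 or 2 or untreated replicate 1 or 2 (adjusted p = 0.142, 0.119, 0.107 and 0.128). The split was 1 rise and 5 falls with quantile normalization, 1 and 6 with median centring, and 2 and 8 with the replicate block. That block called 36.6% of all genes as risen and 29.1% as fallen.

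The Cvt route carries Lap4 and Ams1 to the vacuole. Of 10 of its genes 7 rose and 0 fell (70% called, median 0.25, and 0.30 and 0.16 within scan days 1 and 2). Over all genes 29.6% rose, 23.5% fell and 53.1% were called. LAP4 and AMS1 moved as given above. ATG8, the ubiquitin-like protein of the autophagic membrane, rose by 0.74 ± 0.07 (limma, adjusted p = 0.000117). Its signal was 0.759, 0.755 and 0.711 with glycolaldehyde, against 0.422, 0.427 and 0.481 without it. The sorting nexin gene SNX4 rose by 0.52 ± 0.10 (adjusted p = 0.0035) and ATG11, the scaffold of selective autophagy, by 0.50 ± 0.06 (adjusted p = 0.000482). ATG19, the cargo receptor of this route, singled out after its values were seen, had a log2 change of -0.19 ± 0.10 and did not pass (adjusted p = 0.126). With the replicate block 7 of the 10 rose and 1 fell, where 65.7% of all genes were called.

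On the route by which carboxypeptidase Y is sorted through the endosome, 9 of 17 genes rose and 3 fell (70.6% called, median 0.16). Over all genes 29.6% rose, 23.5% fell and 53.1% were called. VPS29 of the retromer rose by 0.60 ± 0.07 (limma, adjusted p = 0.000318), PEP12 by 0.42 ± 0.06 (adjusted p = 0.000841) and VPS30, a subunit of the phosphatidylinositol 3-kinase complexes, by 0.39 ± 0.06 (adjusted p = 0.00103). VPS34, the kinase itself, fell by 0.22 ± 0.07 (adjusted p = 0.034), and VPS38 of the same complex by 0.22 ± 0.05 (adjusted p = 0.0109). VPS17, a sorting nexin of the retromer, fell by 0.19 ± 0.06 (adjusted p = 0.0219). The rises numbered 7 with quantile normalization, where 3 fell and 54.4% of all genes were called. They were also 7 when a single array other than untreated replicate 3 was left out. Falls depended on single arrays too: 1 was called without glycolaldehyde replicate 1, 0 without glycolaldehyde replicate 2 and 1 without untreated replicate 1. Without glycolaldehyde replicate 2, 1369 of 5945 genes rose and 1121 fell. VPS34 lost its call without any one of 5 arrays, glycolaldehyde replicate 3 being the exception (adjusted p from 0.061 without untreated replicate 3 to 0.12 without glycolaldehyde replicate 1), and VPS38 lost it without glycolaldehyde replicate 2 (0.0541). VPS17 lost it without glycolaldehyde replicate 1 or 2 or untreated replicate 1 (0.0924, 0.0636 and 0.0592). VPS10, which encodes the receptor of carboxypeptidase Y and was singled out likewise, had a log2 change of 0.11 ± 0.08 and did not pass (adjusted p = 0.254).

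In the machinery of vacuole fusion 5 of 11 genes rose and 1 fell (54.5% called, median 0.09), near the 53.1% of all genes called. PEP3, a core subunit of the HOPS tethering complex, rose by 0.52 ± 0.06 (limma, adjusted p = 0.000249), the SNARE gene VTI1 by 0.37 ± 0.07 (adjusted p = 0.0025) and VPS41 of HOPS by 0.32 ± 0.05 (adjusted p = 0.0015). VAM7, a SNARE of the vacuole, fell by 0.41 ± 0.09 (adjusted p = 0.0064). Without glycolaldehyde replicate 1 or 2 or untreated replicate 1 the number of rises was 3, and without glycolaldehyde replicate 3 there were 2 falls. Of the 4 subunits of the AP-3 adaptor, which serves a direct route to the vacuole, APM3 rose by 0.40 ± 0.05 (adjusted p = 0.000489) and APS3 by 0.22 ± 0.06 (adjusted p = 0.0164). That is 50% of the list, again near the share over all genes. APS3 lost its call without glycolaldehyde replicate 1 (adjusted p = 0.0664) or untreated replicate 1 (0.059), and 1 fall was called in the list without untreated replicate 3.

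The proton ATPase acidifies the vacuole, on which its hydrolases depend. Of 13 subunit genes tested 4 rose and 2 fell (46.2% called, median 0.21), beside 29.6% of all genes risen, 23.5% fallen and 53.1% called. VMA1 and VMA2, which encode the catalytic and the regulatory nucleotide-binding subunit, fell by 0.56 ± 0.06 (limma, adjusted p = 0.000271) and 0.40 ± 0.07 (adjusted p = 0.0025). VMA1 stood at 8.31, 8.66 and 8.15 with glycolaldehyde, against 12.5, 12.9 and 11.5 without it. VMA5, VMA16 and VPH1 rose by 0.26 ± 0.07 (adjusted p = 0.0181), 0.24 ± 0.07 (adjusted p = 0.0272) and 0.22 ± 0.05 (adjusted p = 0.0074). VMA5 lost its call without glycolaldehyde replicate 1 or 2 (adjusted p = 0.0638 and 0.0716), and VMA16 without these or untreated replicate 1 or 2 (0.101, 0.102, 0.0782 and 0.062). The count of rises was unsteady: 1 without glycolaldehyde replicate 1 or 2, 10 without glycolaldehyde replicate 3, 9 with the replicate block, 8 with quantile normalization or normexp background correction, and 1 in the 4 agreed arrays. The 2 falls held in each of these. Over all genes 36.6% rose with the replicate block. Without glycolaldehyde replicates 1, 2 and 3 in turn, 1363 of 5959, 1369 of 5945 and 1844 of 5950 genes rose. With quantile normalization 1727 of 5944 rose, with normexp 1748 of 5944, and in the 4 agreed arrays 1565 of 5962. The share called in either direction was 54.4% with quantile normalization and 48.4% in the 4 agreed arrays.

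Transporters that move amino acids across the vacuolar membrane included the largest change among all the genes in these lists. RTC2, a PQ-loop transporter of basic amino acids, fell by 2.29 ± 0.08 (limma, adjusted p = 1.32e-06). Its signal was 0.302, 0.296 and 0.288 with glycolaldehyde, against 1.41, 1.32 and 1.62 without it. Of 13 transporter genes tested 5 rose and 2 fell (53.8% called, median 0.16), near the 53.1% of all genes called. The other fall was that of AVT4, an exporter of neutral amino acids, by 0.30 ± 0.05 (adjusted p = 0.0027). ATG22 rose by 0.37 ± 0.12 (adjusted p = 0.0308), VBA4 by 0.34 ± 0.08 (adjusted p = 0.0083) and AVT1, an importer, by 0.30 ± 0.05 (adjusted p = 0.0015). ATG22 lost its call without glycolaldehyde replicate 1 or 2 or untreated replicate 2 or 3 (adjusted p = 0.0944, 0.103, 0.0605 and 0.072). With the replicate block 7 rose and 4 fell, where 65.7% of all genes were called.

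**Figure D4:**
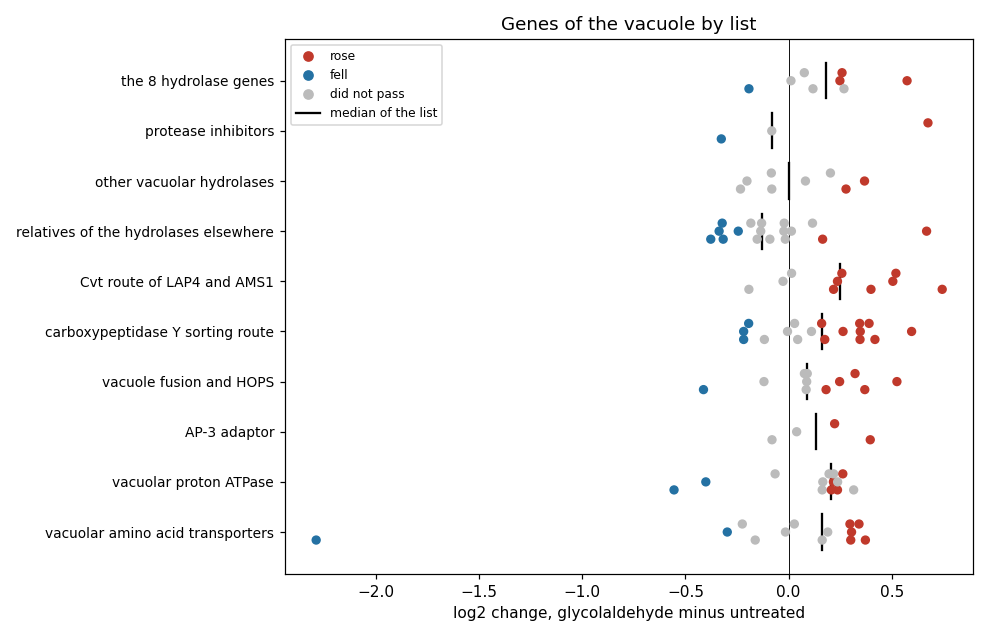
Log2 change, glycolaldehyde minus untreated, of each gene tested in the lists of vacuolar genes; 1 point is 1 gene, coloured by its call at an adjusted p of 0.05 in limma over 6 arrays, and black bars mark list medians. The Cvt route has the highest median (0.25), and RTC2 lies apart at -2.29.

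Over these related lists together 37 of 96 genes rose (38.5%) and 14 fell (14.6%), with a median log2 change of 0.10. Over all genes 29.6% rose and 23.5% fell. The replicate block called 45 rises and 22 falls in the lists, where it called 36.6% and 29.1% of all genes. The lists were chosen with earlier results of these data known, so these shares are a description. Of the genes named from these lists, PFF1, MNS1, VPS34, VPS17, APS3, VMA5, VMA16 and ATG22, besides PBI2, did not pass in the 4 arrays on which the records agree. In those arrays scan day 2 is present in the glycolaldehyde group only.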

How the data were processed

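Expression was measured on Agilent arrays of design 015072 with Cy3-labelled RNA. Per the file headers, the authors extracted spot intensity with Feature Extraction 11.0.1.1, background-subtracted and detrended on a linear scale; per the submitters' processing notes R 3.0.2 was also used, in no stated role. The deposited value table holds, per probe and array, the mean intensity of 7 spots, matched to scanner files with a relative tolerance of 1e-06 (0 columns unmapped). Flags of the scanner files (other columns, per the file headers) gave the probes above background.

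Here log2 intensity minus each array's 75th percentile was fitted in limma 3.58.1 (R 4.3.3; lmFit, eBayes) with treatment as the only term. A gene was tested if over 0.5 of its spots were above background on all 3 arrays of a group; the brightest probe represented 29 genes with several. Names came from RefSeq (assembly R64, 5748 of 6256 probes matched); headers name another build, so no coordinates are given. Of 114 listed names 113 were on the array. The fit was tested on simulated data.

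The 8 genes and all lists were chosen with earlier results of these data known. Named genes were, in lists of up to 8, every called gene, and otherwise up to 3 per direction with the largest change, plus for CPS1 and AMS1 the 3 most correlated genes. Same-numbered samples deviated together (correlations 0.321, 0.401 and 0.621 over 5944 genes), which meets the criterion for pairing, on these data alone. Replicate 3 of both groups was also scan day 2 and slide 3, and differently numbered samples were not compared. These correlations therefore cannot tell pairing from scan day or slide. The reported p come from the fit without the pairs, and the replicate block is an alternative given where it changes a call. Alternatives covered signal source, background correction, normalization, filter, blocks, array record, probes and omitted replicates. The number of arrays limits precision.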

Additional observations from a re-analysis of the deposited data

How the results depend on the processing

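Leaving aside the scanner files as attached, PRB1, CPS1 and DAP2 passed and rose in all 19 alternatives, and AMS1 kept its sign in all 19 and passed in 15. With quantile normalization 6 of the 8 genes rose, with scan day as a block 5 and within scan day 1 alone 5, against 3 as reported. These fits called 54.4%, 68.7% and 70% of all genes, against 53.1% as reported. When replicates 1 and 2 were first averaged and scan day then entered the fit, 4 of the 8 rose, beside 1886 of 5944 genes. LAP4 was added to the reported rises (limma, adjusted p = 0.00564). PRC1, which was called with scan day as a block on all arrays, did not pass there (adjusted p = 0.219). Without single replicates 3 to 4 rose and 0 to 1 fell. The replicate block, which called 65.7% of all genes, gave 4 rises and 1 fall, adding LAP4, and changed no other call among the 8. With the scanner files as attached 0 of the 8 rose or fell, as did 0 of all genes and 0 of the related lists. Falls in the related lists, 14 as reported, were 22 with the replicate block, 24 with scan day as a block, 23 within scan day 1 and 22 with slide as a fixed block, an alternative chosen after seeing the data. Over all genes, 1397 fell as reported, against 1730, 1788, 1790 and 1604 in these fits, in that order. Without single replicates 1363 to 1883 of all genes rose and 1121 to 1495 fell. In the related lists, 26 to 41 rose and 10 to 16 fell. The cause of these shifts was not tested. The median log2 change of all genes stayed between 0.00 (median centring) and 0.05 (without glycolaldehyde replicate 3) outside the scanner files as attached. Replicates 1 and 2 of a group were nearer one another (SD of the gene-wise log2 difference 0.105 for glycolaldehyde and 0.0979 for untreated) than to replicate 3 (0.181 to 0.21).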

Other observations

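The retromer was picked out after its values were seen. In this complex VPS29 and VPS5 rose by 0.60 ± 0.07 and 0.35 ± 0.05 on the log2 scale while VPS17, the partner of Vps5, fell by 0.19 ± 0.06 (limma, adjusted p = 0.000318, 0.000885 and 0.0219). VPS17 lost its call in the 4 arrays on which the records agree (adjusted p = 0.126) and without glycolaldehyde replicate 1 or 2 or untreated replicate 1 (0.0924, 0.0636 and 0.0592). Over all genes 29.6% rose and 23.5% fell, and whether opposite calls within a complex are more frequent than that gives was not tested. VPS35 and VPS26 of the same complex had log2 changes of -0.01 ± 0.09 and 0.04 ± 0.05 and did not pass (adjusted p = 0.966 and 0.484). VPS5 had a signal of 0.291, 0.293 and 0.296 with glycolaldehyde, against 0.226, 0.234 and 0.232 in untreated cells.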
